A study of Mus musculus with 12 samples.

Results

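Mouse embryos were held at the 4-cell stage by U0126 until day 2.5, freed of the inhibitor, and profiled again at day 3.5, when they had reached 8 cells. The comparison sets the released embryos of day 3.5 against the U0126-treated embryos of day 2.5, and its members were chosen by the array titles alone. They are 4 of the 12 arrays of the series, 2 per group. All embryos were of the ICR strain. The released group had been arrested in U0126 and was measured 1 day after the end of the arrest. The U0126-treated group was exposed to 20 µM of the inhibitor and had arrested as 4-cell embryos, per the series' design text. Untreated control embryos were taken as 2-cell embryos at day 1.5, with 4 to 8 cells at day 2.5, and as morulae or blastocysts at day 3.5. A later released group of day 4.5 had also become morulae or blastocysts. Each array held total RNA of whole embryos, and the number of embryos per array and the time of inhibitor addition are not given in the sources used here. Embryo day, cell number and removal of the inhibitor change together between the 2 groups and cannot be told apart.

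U0126 blocks MEK1 and MEK2, the kinases that phosphorylate and activate ERK1 and ERK2, the last kinases of a cascade that receptors for fibroblast growth factors switch on. Active ERK induces immediate early genes such as Fos and Egr1 and its own inhibitors of the Sprouty and Dusp families. In the mouse embryo, RNA loaded into the oocyte is degraded after fertilisation while the embryonic genome is switched on at the 2-cell stage. The 8-cell embryo then compacts, its outer cells become polarised, and these give rise to the trophectoderm, the first epithelium, while inner cells form the inner cell mass. Trophectoderm is known by Cdx2, Gata3 and the simple keratins Krt8 and Krt18, and inner cells by Nanog, Sox2 and Pou5f1.

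Levels are given as log2(intensity + 1), replicate 1 before replicate 2 in each group. A difference is the mean level of released embryos minus that of U0126-treated embryos with its standard error, and adjusted p-values come from limma over all genes tested. Genes under an adjusted p of 0.05 are said to have risen or fallen. Nothing in the labels says that the replicates came from separate litters, although the design text speaks of 2 independent experiments, so p-values measure only the spread between these arrays. The small number of arrays limits the precision, and the median standard error of a difference was 0.35. Where both arrays of a group lay under a level of 5, near the background of these arrays, the difference of a gene that rose or fell is also given as a bound ("at least"), computed with every array raised to at least 5.

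The 2 released arrays correlated at 0.973 over the 9930 genes tested and the 2 U0126 arrays at 0.955, the lowest of the 6 groups. Released arrays correlated with U0126 arrays at 0.869 to 0.887, with control arrays of day 2.5 at 0.923 to 0.942 and with control arrays of day 3.5 at 0.957 to 0.975. Markers of cumulus and granulosa cells reached a level of 5 in 0 of 9 genes and markers of sperm in 0 of 6, with Star highest among the first at 3.90. Ovgp1 was the 1 of 5 oviduct markers above it, at up to 6.35, and the summed intensity of these markers was 43.8 to 44.2 in released embryos and 55.0 to 110.6 in U0126-treated embryos. Cd68 was the 1 of 5 blood and immune markers above it, at 5.64 and 5.49 in released embryos against 7.29 and 6.50 in U0126-treated embryos. The summed intensity of the blood and immune markers was 68.5 to 74.0 in released embryos and 115.2 to 180.7 in U0126-treated embryos. The part of these cells in the differences below was not tested. With whole embryos on each array, fewer cells of a type and less RNA per cell cannot be told apart.

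Release from the arrest was followed by a broad rearrangement of embryo RNA. Among the 9930 genes, 1363 rose (13.7%) and 1436 fell (14.5%). All 2799 had released and U0126 arrays that did not overlap, but a gene called from 2 arrays per group can hardly overlap. The lack of overlap of called genes, here and below, is therefore no support beyond the call. The rises of at least 2 log2 units numbered 425 and the falls of that size 358. For 369 rises both U0126 arrays lay under 5, and for 321 falls both released arrays did. The count of changed genes depended on the released arrays, since it was 1758 without released replicate 1 and 1630 without released replicate 2. The plot gives the levels of the 12 largest rises and 12 largest falls. These were taken only from called genes whose arrays did not overlap, so their separation is a condition of the choice.

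**Figure D1:**
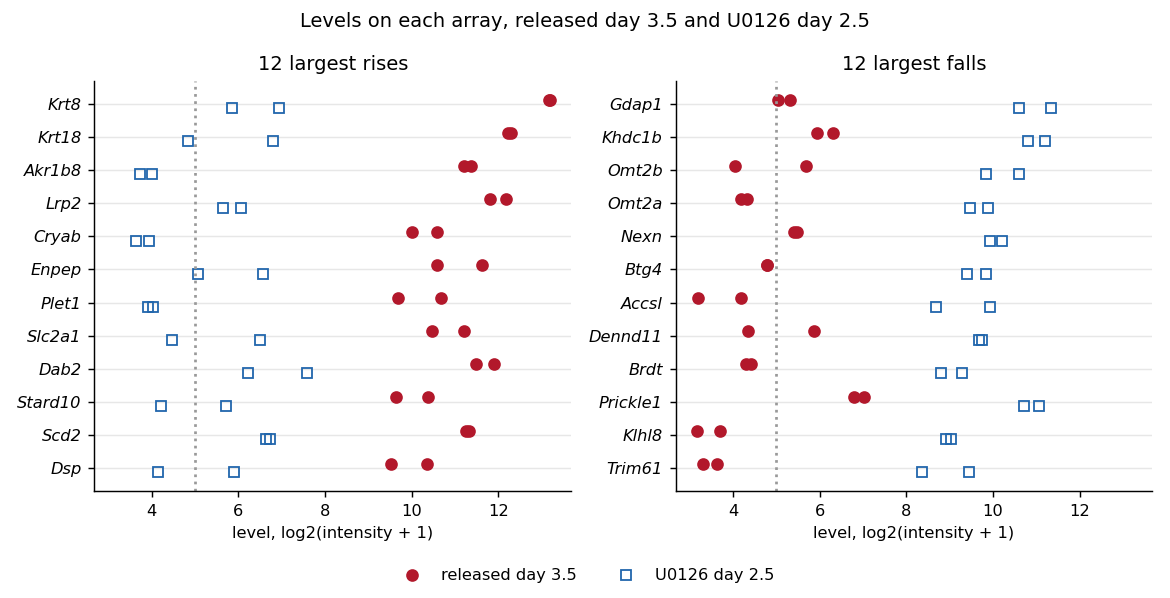
Level on each array, as log2(intensity + 1) on the horizontal axis, for the 12 largest rises (left) and 12 largest falls (right), with released day 3.5 arrays as filled red circles, U0126 day 2.5 arrays as open blue squares and a dotted line at a level of 5. Only called genes whose 2 groups do not overlap could be chosen. Krt8 was at 13.18 and 13.17 in released embryos against 6.95 and 5.86 in U0126-treated embryos.

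The epithelial keratins led the rises when ranked with every array raised to at least 5. Krt8, which pairs with Krt18 in the keratin filaments of simple epithelia, stood at 13.18 and 13.17 in released embryos, against 6.95 and 5.86 in U0126-treated embryos, a difference of 6.77 ± 0.42 (adjusted p = 1.10e-05). Krt18 stood at 12.23 and 12.28 in released embryos, against 6.79 and 4.85 in U0126-treated embryos, a difference of 6.44 ± 0.59 (adjusted p = 7.99e-05). The released arrays of both keratins were nearly alike, whereas their U0126 arrays differed by more than a log2 unit. Akr1b8, an aldo-keto reductase that reduces aldehydes, was at 11.38 and 11.22 in released embryos and at 3.72 and 4.00 in U0126-treated embryos, near background there. Its difference was 7.44 ± 0.41 (adjusted p = 1.04e-05) and at least 6.30. Lrp2, the endocytic receptor megalin, was at 12.18 and 11.81 in released embryos and at 6.05 and 5.64 in U0126-treated embryos, higher by 6.15 ± 0.43 (adjusted p = 1.74e-05). Dab2, an adaptor protein of endocytosis known to bind megalin, reached 11.89 and 11.48 in released embryos, against 7.59 and 6.22 in U0126-treated embryos. Receptor and adaptor were thus both higher on every released array than on either U0126 array.

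Among the other large rises were a chaperone, a surface protein, a transporter and a desmosome protein. Cryab, a small heat shock protein, averaged 10.29 ± 0.40 in released embryos, against 3.79 ± 0.21 in U0126-treated embryos (SD, n = 2 each), at least 5.29 higher. Plet1, a surface protein first known from placenta, was at 10.66 and 9.67 in released embryos, against 3.92 and 4.04 in U0126-treated embryos, at least 5.17 higher. Both genes were near background on both U0126 arrays. Slc2a1, the glucose transporter GLUT1, was at 10.46 and 11.21 in released embryos and at 6.51 and 4.46 in U0126-treated embryos (5.36 ± 0.53, adjusted p = 1.20e-04). Dsp encodes desmoplakin, which ties desmosomes to keratin filaments, and stood at 9.51 and 10.36 in released embryos, against 4.14 and 5.90 in U0126-treated embryos. Scd2, a desaturase that makes monounsaturated fatty acids, had 11.24 and 11.33 in released embryos and 6.63 and 6.72 in U0126-treated embryos. Enpep, a glutamyl aminopeptidase of the cell surface, and the lipid transfer protein Stard10 complete the 12, with differences of 5.28 and 5.05. These rises kept the call without any one array, but they were chosen as the largest called differences on the same arrays. Keeping it is therefore no support beyond the choice.

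Promoter sequences of RefSeq (GRCm38.p6) were read for members with an entry, 10 of the 12 largest rises and 9 of the 12 largest falls. The palindrome GCCTNAGGC, bound by transcription factors of the TFAP2 family, was searched on both strands in the 250 bases before each gene's start. It was found in 2 of the 10, Akr1b8 and Lrp2, against 1.04% of the promoters of all 27025 genes and 1.23% of those of genes tested. The share was 1.39% among genes that rose and 1.18% among genes that fell. It was in 0 of the 15 trophectoderm genes that rose and had an entry. Other motifs were searched in the same 10 promoters too. The looser TFAP2 form GCCNNNGGC was in 5 (24.2% of genes tested), the TEAD site GGAATG in 1 (12.1%), TATAAA in 3 (7.54%) and CACGTG in 0 (10.5%). Such a match is a description of letters and is no evidence of binding. The stretches around it are shown because both genes are among the 12 largest rises, 5′ to 3′ on the strand of the gene, with the match in capitals. That of Akr1b8 lies at chr6:34353896-34354015 on the plus strand and that of Lrp2 at chr2:69586030-69586107 on the minus strand.
Akr1b8: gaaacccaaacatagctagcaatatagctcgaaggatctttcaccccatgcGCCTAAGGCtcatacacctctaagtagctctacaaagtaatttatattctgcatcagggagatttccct
Lrp2: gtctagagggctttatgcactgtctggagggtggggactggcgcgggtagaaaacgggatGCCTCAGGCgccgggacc

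Trophectoderm genes rose as a group. Of 32 on the array, 28 passed the filter on low values. Of these, 17 rose (60.7%) and 1 fell (3.57%), beside 13.7% and 14.5% of all genes. Their median difference was 1.56, beside -0.02 over all genes. Cdx2, the transcription factor that specifies trophectoderm, was at 9.46 and 8.91 in released embryos, against 4.51 and 4.34 in U0126-treated embryos, a difference of 4.76 ± 0.35 (adjusted p = 2.35e-05) and at least 4.18. Gata3, which acts in parallel with Cdx2, was at 9.80 and 9.40 in released embryos and at 5.97 and 5.62 in U0126-treated embryos, higher by 3.80 ± 0.42 (adjusted p = 2.35e-04). Id2, an inhibitor of basic helix-loop-helix factors and an early mark of outer cells, was at 10.58 and 11.38 in released embryos and at 8.22 and 8.34 in U0126-treated embryos, a difference of 2.69 ± 0.44 (adjusted p = 0.00166). No U0126 array reached either released array for these factors. Eomes, a T-box factor of trophectoderm, was at 7.51 and 7.62 in released embryos, against 6.65 and 4.20 in U0126-treated embryos, a difference of 2.14 ± 0.64 (adjusted p = 0.0306). The call for Eomes was lost without U0126 replicate 2 (0.92, adjusted p = 0.173), without released replicate 1 (2.20, adjusted p = 0.0945) and without released replicate 2 (2.09, adjusted p = 0.115), and with the mean of its probe sets (1.65, adjusted p = 0.0629). Tead4, the factor that acts upstream of Cdx2, was at 10.01 and 8.98 in released embryos and at 8.40 and 8.14 in U0126-treated embryos and did not pass (1.22 ± 0.47, adjusted p = 0.0783), but passed with the replicate number as a block (adjusted p = 0.0122). A further probe set of Tead4, of mean level 7.81, gave -0.13. The list had 11 rises without either released array.

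Genes of compaction, cell junctions and the blastocoel rose too, in 18 of the 44 tested (40.9%, beside 13.7% of all genes). There were 3 falls (6.82%, beside 14.5%), and the median difference was 0.93. Cldn4, a claudin of tight junctions, was at 9.94 and 8.70 in released embryos, against 5.89 and 4.74 in U0126-treated embryos, higher by 4.01 ± 0.56 (adjusted p = 7.28e-04). The desmosomal cadherin Dsg2 had levels of 7.91 and 8.65 in released embryos, against 4.81 and 3.63 in U0126-treated embryos (4.07 ± 0.48, adjusted p = 3.21e-04, and at least 3.28). The desmosomal plaque protein Pkp2 had 10.03 and 10.84 in released embryos, against 6.96 and 7.39 in U0126-treated embryos (3.26 ± 0.41, adjusted p = 4.04e-04). With Dsp above, 3 desmosome genes were thus higher on both released arrays. Cdh1, the cadherin that drives compaction, averaged 11.09 ± 0.13 in released embryos, against 9.19 ± 0.32 in U0126-treated embryos (SD, n = 2 each), a smaller difference of 1.90 ± 0.31 (adjusted p = 0.0017). Atp1b1, a sodium pump subunit that helps fill the blastocoel, was at 10.43 and 10.78 in released embryos, against 8.74 and 8.03 in U0126-treated embryos (2.22 ± 0.32, adjusted p = 9.09e-04). Ezr, the membrane linker ezrin of the apical pole, was at 8.52 and 8.27 in released embryos and at 7.14 and 5.68 in U0126-treated embryos. The difference for Ezr was 1.98 ± 0.44 (adjusted p = 0.00743) and kept the call at 1.25 without U0126 replicate 2. Tjp1, the scaffold ZO-1 of tight junctions, averaged 10.91 ± 0.13 in released embryos and 10.88 ± 0.15 in U0126-treated embryos (SD, n = 2 each), and its groups overlapped (0.03 ± 0.24, adjusted p = 0.935). Aqp3, a water channel, missed the threshold (1.16 ± 0.49, adjusted p = 0.0979) and passed with the block (adjusted p = 0.0466). It turned on the U0126 arrays, with 2.09 (adjusted p = 0.00278) without U0126 replicate 1 and 0.24 (adjusted p = 0.66) without U0126 replicate 2. The 3 falls of the list became 0 without released replicate 2, 1 without U0126 replicate 2 and 6 with the block.

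Pluripotency and inner cell mass genes moved in both directions, with 6 rises (19.4%) and 7 falls (22.6%) among 31 tested. The shares of all genes were 13.7% and 14.5%, and the median difference of the list was 0.29. Nanog was at 10.90 and 10.36 in released embryos, against 6.53 and 7.27 in U0126-treated embryos, a difference of 3.73 ± 0.32 (adjusted p = 5.49e-05). Tfcp2l1, a transcription factor of naive pluripotent cells, was at 10.56 and 10.47 in released embryos, against 6.31 and 6.45 in U0126-treated embryos (4.13 ± 0.38, adjusted p = 7.99e-05). Gdf3, a ligand of the TGF-beta family, was at 7.85 and 6.68 in released embryos and near background at 3.41 and 3.68 in U0126-treated embryos, at least 2.27 higher. These 3 were far apart between the groups. Pou5f1, which encodes Oct4, was at 11.77 and 10.64 in released embryos, against 9.56 and 9.19 in U0126-treated embryos, a difference of 1.83 ± 0.46 (adjusted p = 0.0136). Its call was lost without U0126 replicate 2 (adjusted p = 0.0671) and without released replicate 1 (adjusted p = 0.108). Sox2, the partner of Oct4 on DNA, was at 5.90 and 6.86 in released embryos, against 5.99 and 5.66 in U0126-treated embryos, and its groups overlapped (0.55 ± 0.59, adjusted p = 0.526). Klf4 was at 9.91 and 9.96 in released embryos and at 10.42 and 11.22 in U0126-treated embryos (-0.89 ± 0.38, adjusted p = 0.103, or 0.0295 with the block). Esrrb did not pass either (-0.76 ± 0.47, adjusted p = 0.261), except without released replicate 1 (-1.51, adjusted p = 0.0433). The 7 falls became 4 without released replicate 2 and 4 without U0126 replicate 1.

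Of the 18 primitive endoderm genes tested, 9 rose (50%, beside 13.7% of all genes) and 1 fell (5.56%, beside 14.5%), with a median difference of 1.14. Col4a1 and Col4a2 encode the paired chains of type IV collagen, the main collagen of basement membranes. Col4a1 was at 8.75 and 8.71 in released embryos, against 5.02 and 5.53 in U0126-treated embryos, a difference of 3.45 ± 0.27 (adjusted p = 3.14e-05). Col4a2 was at 7.14 and 6.95 in released embryos, against 3.25 and 4.01 in U0126-treated embryos, at least 2.05 higher. Neither collagen is specific to primitive endoderm, and Dab2 and Lrp2, described above, are known there as well as in trophectoderm. Among the defining factors, Gata6 was at 10.88 and 9.76 in released embryos, against 9.36 and 8.36 in U0126-treated embryos (1.46 ± 0.43, adjusted p = 0.0293). Its call was lost without U0126 replicate 2 (0.96, adjusted p = 0.177) and without released replicate 1 (0.90, adjusted p = 0.21). Gata4 fell, with 4.18 and 3.18 in released embryos, near background, against 6.43 and 6.54 in U0126-treated embryos, at least 1.48 lower (adjusted p = 0.00151). Sox17 was under 5 on all 4 arrays, and Pdgfra was at 5.04 and 5.73 in released embryos and at 4.58 and 5.50 in U0126-treated embryos.

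The 12 largest falls included genes known from the oocyte, such as Omt2a, Omt2b, Khdc1b and Btg4, beside genes of other roles. Gdap1, a protein of the mitochondrial outer membrane, was at 5.31 and 5.04 in released embryos, against 10.60 and 11.34 in U0126-treated embryos, lower by 5.79 on the log2 scale (SE 0.55, adjusted p = 1.06e-04). Omt2a and Omt2b, oocyte maturation genes that are close copies and whose probe sets may read both, fell alike. Omt2a was at 4.18 and 4.33 in released embryos, against 9.46 and 9.89 in U0126-treated embryos, at least 4.67 lower, and Omt2b was at 5.68 and 4.04 in released embryos, against 10.61 and 9.83 in U0126-treated embryos. Khdc1b, an oocyte RNA-binding protein with a KH domain, was at 6.31 and 5.94 in released embryos and at 10.82 and 11.21 in U0126-treated embryos. Btg4, the adaptor that brings the CCR4-NOT deadenylase to maternal mRNA, was at 4.79 and 4.79 in released embryos, against 9.83 and 9.41 in U0126-treated embryos, at least 4.62 lower (adjusted p = 1.04e-05). In every one of these the U0126 arrays were far above the released arrays. Control 2-cell embryos of day 1.5 were higher again, at 12.89 and 13.35 for Gdap1, 13.50 and 12.86 for Omt2a and 13.29 and 13.60 for Btg4. The other 7 of the 12 were Nexn, an actin-binding protein, Accsl, Dennd11, the bromodomain protein Brdt of the germ line, the planar polarity protein Prickle1, Klhl8 and Trim61, with differences between -3.99 and -5.62. Both released arrays lay under 5 for Accsl, Brdt, Klhl8 and Trim61, which were at least 4.31, 4.04, 3.98 and 3.90 lower. These falls also kept the call without any one array, which for the largest called differences on the same arrays is no support beyond the choice.

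Maternal oocyte genes fell as a group, 16 of 31 tested (51.6%, beside 14.5% of all genes). There were 3 rises (9.68%, beside 13.7%), and the median difference was -1.24. Nlrp14, an oocyte NLR protein needed for early cleavage, was at 6.43 and 6.80 in released embryos, against 9.47 and 9.98 in U0126-treated embryos, a difference of -3.11 ± 0.32 (adjusted p = 1.60e-04). Nlrp4f of the same family was at 5.84 and 6.51 in released embryos, against 8.77 and 9.20 in U0126-treated embryos. The oocyte growth factor Gdf9 was at 6.03 and 5.90 in released embryos, against 7.93 and 8.21 in U0126-treated embryos (-2.10 ± 0.39, adjusted p = 0.00302). These 3 had released arrays at least a log2 unit under the U0126 arrays. Its partner Bmp15 did not pass, at 3.76 and 3.69 in released embryos and 4.23 and 5.60 in U0126-treated embryos (adjusted p = 0.0513, or 0.0315 with the block and 0.00537 without U0126 replicate 1). Zp3, a zona pellucida glycoprotein, did not pass either (-1.24 ± 0.47, adjusted p = 0.0698). Khdc3, a subunit of the subcortical maternal complex, went the other way, at 12.45 and 12.14 in released embryos, against 9.33 and 8.42 in U0126-treated embryos (3.42 ± 0.37, adjusted p = 2.10e-04). Its level in control embryos was 5.20 and 5.35 at day 1.5, 11.33 and 10.48 at day 2.5 and 12.51 and 12.38 at day 3.5, so this probe set was low at the 2-cell stage.

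Genes of the 2-cell stage are transcribed when the embryonic genome is switched on. They had 4 rises (25%, beside 13.7% of all genes) and 3 falls (18.8%, beside 14.5%) among 16 tested. Their median difference was 0.04. Tcstv1, a 2-cell transcript, was at 8.28 and 8.51 in released embryos, against 3.96 and 6.33 in U0126-treated embryos, a difference of 3.25 ± 0.72 (adjusted p = 0.0076). It kept the call at 2.06 without U0126 replicate 1. Its near-identical neighbour Tcstv3 was at 8.42 and 9.09 in released embryos, against 3.45 and 6.82 in U0126-treated embryos. Usp17la, of a repeated family of deubiquitinases, was at 9.01 and 10.69 in released embryos, against 4.72 and 7.41 in U0126-treated embryos. U0126 replicate 1 was the lower of its group for all 3 of these genes, and members of both families may share probes. Tcstv3 lost its call without U0126 replicate 1 (1.93, adjusted p = 0.0576) or released replicate 2 (3.28, adjusted p = 0.0774), and so did Usp17la (2.44, adjusted p = 0.128, and 2.95, adjusted p = 0.13). The list then had 1 rise in either case. Klf17, a Krüppel-like factor of early embryos, fell to 9.17 and 9.77 in released embryos, against 12.74 and 13.04 in U0126-treated embryos (-3.42 ± 0.45, adjusted p = 5.30e-04).

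ERK target genes are the transcripts most directly tied to the inhibited pathway. After release they had 3 rises (15%) and 4 falls (20%) among 20 tested, near the 13.7% and 14.5% of all genes. Their median difference was -0.34. The median ran from -0.76 without U0126 replicate 2 to -0.12 without released replicate 2. Phlda1, a pleckstrin-homology protein induced by growth factors, was at 8.14 and 8.07 in released embryos, against 5.81 and 6.17 in U0126-treated embryos, a difference of 2.12 ± 0.29 (adjusted p = 6.37e-04). Jun, a subunit of the AP-1 factor, was at 7.27 and 7.87 in released embryos, against 5.70 and 5.22 in U0126-treated embryos (2.11 ± 0.33, adjusted p = 0.00143). Spry4, a Sprouty inhibitor of receptor signalling, went down, at 4.73 and 4.41 in released embryos, against 6.44 and 6.61 in U0126-treated embryos, by at least 1.52 on the log2 scale (adjusted p = 9.61e-04). The groups did not overlap for any of these. Spry1 fell as well (-1.17 ± 0.37, adjusted p = 0.0386), but its call was lost without U0126 replicate 1 (adjusted p = 0.124), U0126 replicate 2 (adjusted p = 0.0805) or released replicate 2 (-0.57, adjusted p = 0.286). The immediate early genes Egr1 and Fos did not pass, unlike Jun. Egr1 was at 6.20 and 6.04 in released embryos, against 8.02 and 6.35 in U0126-treated embryos (-1.06 ± 0.48, adjusted p = 0.126). The outcome for Egr1 turned on 1 array, since it was -1.90 and passed without U0126 replicate 2 (adjusted p = 0.00949) and was -0.23 without U0126 replicate 1 (adjusted p = 0.727). Fos was at 5.65 and 5.82 in released embryos, against 6.29 and 5.12 in U0126-treated embryos (0.03 ± 0.37, adjusted p = 0.969). The ERK phosphatase Dusp6 was at 4.89 and 4.54 in released embryos, against 5.68 and 5.14 in U0126-treated embryos (-0.69 ± 0.34, adjusted p = 0.15). The growth factor effectors Etv5 (adjusted p = 0.269) and Myc (adjusted p = 0.394) did not pass either. The list had 2 falls without U0126 replicate 1.

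Among 17 components of the ERK cascade 1 rose (5.88%, beside 13.7% of all genes) and 4 fell (23.5%, beside 14.5%), with a median difference of 0.09. Fgf4, the growth factor ligand made by inner cells, was at 5.18 and 4.83 in released embryos, against 7.48 and 8.70 in U0126-treated embryos, a difference of -3.09 ± 0.37 (adjusted p = 3.51e-04). It stood out from the rest of the cascade, whose other falls were of 1.05 to 1.43 log2 units. The receptor Fgfr4 was at 4.80 and 5.22 in released embryos and at 6.43 and 6.45 in U0126-treated embryos (-1.43 ± 0.33, adjusted p = 0.00858), a call lost without released replicate 1 (adjusted p = 0.065). Ptpn11, the phosphatase SHP2 that relays receptor signals, was at 10.21 and 9.99 in released embryos and at 11.16 and 11.14 in U0126-treated embryos (-1.05 ± 0.25, adjusted p = 0.0106), a call lost without released replicate 2 (adjusted p = 0.0741). The exchange factor Sos2 also fell (-1.38 ± 0.37, adjusted p = 0.0198) and lost the call without any one of the 4 arrays (adjusted p = 0.05 to 0.0842). The receptors Fgfr1 (0.09 ± 0.52) and Fgfr2 (0.51 ± 0.36) and the kinase Map2k1, the direct target of U0126 (0.24 ± 0.25), did not pass. The list had 2 falls without either released array, and its 1 rise was lost without released replicate 1, released replicate 2 or U0126 replicate 2.

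Growth arrest and p53 target genes moved both ways, with 7 rises (24.1%) and 5 falls (17.2%) among 29 tested and a median of 0.30. Among all genes 13.7% rose and 14.5% fell. Gadd45g, an inducible growth arrest gene, was at 4.74 and 4.91 in released embryos, against 9.17 and 7.10 in U0126-treated embryos, at least 3.13 lower (adjusted p = 0.00165). The related Gadd45a and Gadd45b did not pass (adjusted p = 0.447 and 0.271). For Gadd45b the probe set used gave -0.66, and a second probe set of lower level gave -2.55. Mdm2, of the same list, fell (-0.95, adjusted p = 0.0471), and its difference ran from -1.28 to -0.63 without 1 array. Among other settings, its call was lost with each array centred on its median (adjusted p = 0.0608). It was also lost with the mean of its probe sets (adjusted p = 0.132). Perp, Zmat3 and Ccng1 rose and did not overlap between the groups. Perp, a desmosome protein and p53 target, was at 9.32 and 9.64 in released embryos, against 5.73 and 7.03 in U0126-treated embryos (3.10 ± 0.43, adjusted p = 7.04e-04). Zmat3, an RNA-binding p53 target, was at 7.94 and 8.36 in released embryos, against 4.67 and 5.13 in U0126-treated embryos (3.25 ± 0.43, adjusted p = 5.76e-04). Ccng1, cyclin G1, was at 10.62 and 11.64 in released embryos, against 8.01 and 8.61 in U0126-treated embryos (2.82 ± 0.47, adjusted p = 0.00185). The CDK inhibitor Cdkn1a was at 9.74 and 9.73 in released embryos, against 8.78 and 8.08 in U0126-treated embryos (1.30 ± 0.33, adjusted p = 0.0151), and lost the call without U0126 replicate 2 (adjusted p = 0.0939), released replicate 1 (adjusted p = 0.0662) or released replicate 2 (adjusted p = 0.0667). The 5 falls became 3 without released replicate 2. Of 13 Bcl2 family genes 1 rose (0 to 2 without 1 array) and 2 fell (1 to 2 without 1 array), and the oocyte-enriched survival gene Bcl2l10 fell the most, to 4.66 and 4.09 in released embryos, against 6.46 and 8.63 in U0126-treated embryos, at least 2.54 lower (adjusted p = 0.00206). Its difference of -3.17 was -2.08 without U0126 replicate 2. In the Bcl2 family 7.69% rose and 15.4% fell, beside 13.7% and 14.5% of all genes.

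Circadian clock genes had 6 falls and 0 rises among 15 tested, with a median difference of -1.07, and the number of falls moved by less than 1.5 times without any one array. The falls were 40% of the list, beside 14.5% of all genes, and the rises 0%, beside 13.7%. In limma 0 of the clock genes rose and 9 fell at an unadjusted p under 0.05. Dbp, an output factor of the clock that binds D-box elements, was at 5.17 and 6.16 in released embryos, against 9.32 and 9.0 in U0126-treated embryos, a difference of -3.49 ± 0.58 (adjusted p = 0.00168). Its relative Tef was at 4.77 and 5.69 in released embryos, against 7.89 and 7.44 in U0126-treated embryos (-2.44 ± 0.34, adjusted p = 7.28e-04). The nuclear receptor Nr1d2 was at 8.23 and 8.49 in released embryos, against 11.25 and 11.22 in U0126-treated embryos (-2.88 ± 0.40, adjusted p = 7.29e-04). All 3 had every U0126 array at least a log2 unit above the released arrays. Clock, which pairs with BMAL1 to activate transcription, was at 7.55 and 6.88 in released embryos, against 9.82 and 9.10 in U0126-treated embryos (-2.25 ± 0.33, adjusted p = 9.43e-04). The repressor Per1 was near background at 3.83 and 3.89 in released embryos, against 7.01 and 5.11 in U0126-treated embryos, at least 1.06 lower (adjusted p = 0.0076). Its difference of -2.20 was -1.25 without U0126 replicate 1. Arntl, which encodes BMAL1, was at 4.98 and 5.61 in released embryos and at 5.21 and 5.09 in U0126-treated embryos and did not pass (0.15 ± 0.34, adjusted p = 0.782).

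The E-box CACGTG, the site bound by CLOCK and BMAL1, was searched in the same promoters on both strands. It occurred in 3 of the 6 clock genes that fell, against 6.86% of all promoters and 10.5% of those of the genes tested. Its share was 7.51% among genes that rose and 13.1% among genes that fell. Per1, Cry1 and Tef hold it, and the stretches are shown with the E-box in capitals because they are the fallen clock genes that carry the site. Clock genes that did not fall were not looked at for it. Tef has a further entry that also holds it, not shown. The site was also before Brdt and Gadd45g, which fell, and before Klf6, a trophectoderm gene that rose. Cry1, a repressor of the clock, was named after its values were seen. The stretches of Per1, Cry1 and Tef lie at chr11:69098723-69098848 (plus strand), chr10:85185055-85185174 (minus strand) and chr15:81802486-81802611 (plus strand).
Per1: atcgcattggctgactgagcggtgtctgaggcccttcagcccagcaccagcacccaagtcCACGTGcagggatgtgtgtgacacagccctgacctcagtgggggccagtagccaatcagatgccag
Cry1: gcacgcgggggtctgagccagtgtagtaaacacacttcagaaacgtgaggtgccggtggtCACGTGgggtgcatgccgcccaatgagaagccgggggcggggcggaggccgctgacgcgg
Tef: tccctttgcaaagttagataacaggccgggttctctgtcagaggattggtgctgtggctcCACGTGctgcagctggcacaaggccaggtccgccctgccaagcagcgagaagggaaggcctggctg

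Cell cycle genes were called at shares near or under those of all genes, although the embryos had gone on dividing. Cyclins, CDKs and their regulators had 3 rises and 6 falls among 32, DNA replication genes 4 and 7 among 48, and mitosis and spindle genes 4 and 2 among 45. The shares that rose were 9.38%, 8.33% and 8.89%, below the 13.7% of all genes, and the shares that fell were 18.8%, 14.6% and 4.44%, beside 14.5% of all genes. Cdk1, the mitotic kinase, was at 11.89 and 11.37 in released embryos and at 11.21 and 11.36 in U0126-treated embryos (0.35 ± 0.27, adjusted p = 0.372). The replication clamp Pcna was at 12.52 and 11.72 in released embryos and at 12.39 and 11.88 in U0126-treated embryos, and the mitotic kinase Plk1 was at 9.52 and 8.62 in released embryos and at 9.27 and 8.58 in U0126-treated embryos. Their groups overlapped. Cdc25b, the phosphatase that activates CDK1, fell to 5.87 and 4.95 in released embryos, against 7.57 and 7.80 in U0126-treated embryos (-2.28 ± 0.32, adjusted p = 8.08e-04). The CDK4 and CDK6 inhibitor Cdkn2d fell to 5.70 and 5.66 in released embryos, against 7.42 and 7.20 in U0126-treated embryos (-1.63 ± 0.32, adjusted p = 0.00409). Ccnd3, cyclin D3, rose to 9.48 and 8.77 in released embryos, against 7.68 and 6.10 in U0126-treated embryos (2.23 ± 0.58, adjusted p = 0.016), a call lost without U0126 replicate 2 (1.44, adjusted p = 0.109) or released replicate 1 (1.88, adjusted p = 0.0984). Counts in these lists were small and changed with the array left out. Without released replicate 1, cyclins and CDKs had 1 rise and 3 falls, replication genes 2 and 3, and mitosis genes 0 and 0. Replication genes had 2 to 4 falls without any one array.

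Respiratory chain subunits had 20 rises and 0 falls among 72 tested, with a median difference of 0.72. That is 27.8% higher, beside 13.7% of all genes, and 0% lower, beside 14.5% of all genes. The other 52 did not pass. The rises were modest in size. Ndufa8 of complex I was at 9.93 and 10.04 in released embryos, against 8.73 and 7.88 in U0126-treated embryos (1.68 ± 0.32, adjusted p = 0.00343). Sdhb of complex II was at 10.04 and 9.96 in released embryos, against 8.52 and 8.36 in U0126-treated embryos (1.56 ± 0.28, adjusted p = 0.00265). Ndufa5 of complex I was at 11.85 and 12.28 in released embryos, against 10.45 and 10.66 in U0126-treated embryos (1.51 ± 0.25, adjusted p = 0.00179). All 3 were higher on both released arrays. The core subunits Sdha, Cox4i1 and Atp5b did not pass, with differences of 0.64, 0.36 and 0.15. The number of rises was 8 without released replicate 1, 6 without released replicate 2, 10 without U0126 replicate 2 and 37 with the block. Limma gave 0 falls in the list, 0 also at an unadjusted p under 0.05, and 0 without any one array or with the block.

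More genes of glucose use and of lipid synthesis rose than fell, while most did not pass. Among 23 genes of glucose uptake, glycolysis and pyruvate use 7 rose (30.4%, beside 13.7% of all genes). Of the same 23, 2 fell (8.70%, beside 14.5%), and the median difference was 0.71. This median was 0.34 without U0126 replicate 2 and 0.45 without released replicate 1, and 1 fall was left without either of these or released replicate 2. Beside Slc2a1, the second transporter Slc2a3 was at 12.85 and 12.83 in released embryos, against 11.03 and 10.17 in U0126-treated embryos (2.24 ± 0.32, adjusted p = 9.19e-04). Gapdh, a glycolytic enzyme often used as a reference gene, was at 11.90 and 11.57 in released embryos, against 8.60 and 8.04 in U0126-treated embryos (3.42 ± 0.43, adjusted p = 4.04e-04). The glycolytic enzyme Tpi1 was at 8.16 and 8.13 in released embryos, against 6.05 and 5.79 in U0126-treated embryos (2.23 ± 0.37, adjusted p = 0.00177). None of these overlapped between the groups. Ldhb, the lactate dehydrogenase subunit abundant in oocytes, fell (-1.74 ± 0.47, adjusted p = 0.019), a call lost without U0126 replicate 2 (adjusted p = 0.094), released replicate 1 (adjusted p = 0.0976) or released replicate 2 (adjusted p = 0.0549). The pyruvate kinase Pkm missed the threshold (1.89 ± 0.73, adjusted p = 0.0791) and passed with the block (adjusted p = 0.00483) or without U0126 replicate 1 (2.87, adjusted p = 0.0244). Sterol and fatty acid synthesis genes had 10 rises in limma among 34 tested (29.4%, beside 13.7% of all genes). They had 0 falls, beside 14.5% of all genes (2 falls at an unadjusted p under 0.05). Their median was 0.68, or 0.44 without U0126 replicate 2. The cholesterol carrier Stard4 was at 9.42 and 9.87 in released embryos, against 5.73 and 7.05 in U0126-treated embryos (3.25 ± 0.49, adjusted p = 0.00108). Pmvk, a mevalonate pathway kinase, was at 9.01 and 8.46 in released embryos, against 6.60 and 6.41 in U0126-treated embryos, and Dhcr7, the last enzyme of cholesterol synthesis, was at 9.95 and 9.46 in released embryos, against 7.95 and 7.73 in U0126-treated embryos. The early enzymes Hmgcs1 (-0.48 ± 0.36) and Sqle (-0.32 ± 0.31) did not pass, so the list did not move as one. Without released replicate 2 it had 6 rises, and without U0126 replicate 1 or with the block it had 1 fall.

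Mitochondrial fatty acid oxidation had 9 rises (37.5%) and 3 falls (12.5%) among 24 tested, beside 13.7% and 14.5% of all genes. Its median difference was 1.02. Acadvl, the very long chain acyl-CoA dehydrogenase, was at 8.59 and 8.96 in released embryos, against 6.36 and 6.11 in U0126-treated embryos (2.54 ± 0.38, adjusted p = 0.0011). Ppargc1b, a coactivator of mitochondrial genes, was at 7.13 and 7.98 in released embryos, against 4.15 and 4.52 in U0126-treated embryos, at least 2.55 higher. Cpt1a, the carnitine transferase that controls entry of fatty acids into mitochondria, went down instead, at 7.46 and 7.72 in released embryos, against 9.28 and 8.61 in U0126-treated embryos (-1.35 ± 0.33, adjusted p = 0.0115). The call for Cpt1a was lost without U0126 replicate 1 (adjusted p = 0.0706) or released replicate 1 (adjusted p = 0.0717), and the list had 1 fall without released replicate 1. Oxidative and metal stress genes had 8 rises (32%, beside 13.7% of all genes) and 2 falls (8%, beside 14.5%) among 25 tested. Cat, the catalase that breaks down hydrogen peroxide, was at 9.34 and 10.26 in released embryos, against 5.82 and 5.84 in U0126-treated embryos (3.97 ± 0.32, adjusted p = 3.81e-05). The peroxiredoxin Prdx2 was at 10.19 and 10.40 in released embryos, against 8.23 and 8.12 in U0126-treated embryos (2.12 ± 0.25, adjusted p = 3.21e-04). Both enzymes were clear of the U0126 arrays on each released array. The metallothioneins Mt1 (-0.44 ± 0.41) and Mt2 (0.32 ± 0.46) and the regulator Nfe2l2 (-0.08 ± 0.36) did not pass. Rises in the stress list numbered 4 without released replicate 1, 5 without released replicate 2 and 5 without U0126 replicate 2, and the 2 falls became 0 without released replicate 2.

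Most genes of ribosome biogenesis and of the mitochondrial ribosome did not pass. The share that fell in the first and the share that rose in the second were near those of all genes. Of the cytosolic ribosomal proteins 4.65% rose and 0% fell, beside 13.7% and 14.5% of all genes. Ribosome biogenesis genes had 16 falls (19.0%, beside 14.5% of all genes) and, in limma, 0 rises among 84 tested (0 also at an unadjusted p under 0.05), with a median difference of -0.34. The median was -0.17 without released replicate 2 and -0.58 without released replicate 1. Wdr43, a nucleolar factor of ribosomal RNA processing, was at 10.53 and 9.71 in released embryos, against 11.94 and 11.82 in U0126-treated embryos (-1.76 ± 0.35, adjusted p = 0.00428). The nucleolar proteins Ncl (0.01 ± 0.49), Npm1 (0.20 ± 0.23) and Fbl (-0.43 ± 0.37) did not pass. The 16 falls became 8 without released replicate 1, 4 without released replicate 2, 6 without either U0126 array and 29 with the block. Mitochondrial ribosomal proteins had 11 rises (15.1%, beside 13.7% of all genes) and 1 fall (1.37%, beside 14.5%) among 73 tested, with a median of 0.36. Mrpl42 was at 10.49 and 10.34 in released embryos, against 9.13 and 8.86 in U0126-treated embryos (1.42 ± 0.28, adjusted p = 0.00411). The 11 rises became 5 without released replicate 1, 2 without released replicate 2, 7 without U0126 replicate 1 and 23 with the block. Cytosolic ribosomal proteins had 2 rises among 43, both lost without either released array or without U0126 replicate 1, and 0 falls in limma, with 0 also at an unadjusted p under 0.05.

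Proteasome subunits had 8 rises among 42 tested (19.0%, beside 13.7% of all genes). In limma they had 0 falls, beside 14.5% of all genes (2 at an unadjusted p under 0.05). Their median difference was 0.52, or 0.35 without U0126 replicate 2. Psmg2, a chaperone of proteasome assembly, averaged 9.99 ± 0.02 in released embryos, against 8.44 ± 0.01 in U0126-treated embryos (SD, n = 2 each; 1.55 ± 0.25, adjusted p = 0.00165). The rises numbered 2 without released replicate 1, 3 without released replicate 2, 5 without U0126 replicate 2 and 16 with the block. Heat shock proteins and chaperonins had 7 rises (19.4%) and 3 falls (8.33%) among 36, beside 13.7% and 14.5% of all genes. Hspa8, the constitutive HSC70, was at 14.72 and 14.77 in released embryos, against 12.79 and 13.64 in U0126-treated embryos (1.53 ± 0.34, adjusted p = 0.00755), among the highest levels named here. The inducible and near-identical Hspa1a and Hspa1b rose as well, but the call for Hspa1a was lost without U0126 replicate 2 (adjusted p = 0.178) or released replicate 1 (adjusted p = 0.165). That for Hspa1b was lost without U0126 replicate 2 (adjusted p = 0.074), released replicate 1 (adjusted p = 0.0756) or released replicate 2 (adjusted p = 0.053). The heat shock list had 2 rises without released replicate 1 or U0126 replicate 2, and 0 falls without either of these or released replicate 2. Translation initiation factors had 2 falls among 35 tested, none of which held without released replicate 1, and 1 rise, Eif4ebp1, an inhibitor of the cap-binding factor eIF4E, at 11.63 and 11.77 in released embryos, against 9.93 and 9.92 in U0126-treated embryos (1.78 ± 0.26, adjusted p = 9.75e-04). Of the initiation factors 2.86% rose and 5.71% fell, under the 13.7% and 14.5% of all genes. RNA splicing factors had 1 rise (1.79%) and 5 falls (8.93%) among 56 tested, also under those shares. The rise was Hnrnpa2b1, at 12.73 and 12.77 in released embryos, against 11.44 and 11.79 in U0126-treated embryos (1.14, adjusted p = 0.00708). The call for Hnrnpa2b1 ended with the mean of all its probe sets (0.48, adjusted p = 0.116), and a further probe set of mean level 12.15 gave -0.73. The 5 splicing falls became 0 without released replicate 2, 1 without released replicate 1 or U0126 replicate 1 and 3 without U0126 replicate 2.

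Regulators of DNA methylation and chromatin had 6 rises (9.68%) and 17 falls (27.4%) among 62 tested, beside 13.7% and 14.5% of all genes. Their median difference was -0.24. Tet2, which oxidises methylated cytosine, was at 9.12 and 9.85 in released embryos, against 5.68 and 6.19 in U0126-treated embryos (3.54 ± 0.65, adjusted p = 0.00301). The de novo methyltransferase Dnmt3b was at 10.82 and 11.21 in released embryos, against 8.91 and 8.76 in U0126-treated embryos (2.18 ± 0.27, adjusted p = 3.83e-04). Its relative Dnmt3a did not pass, at 6.99 and 5.79 in released embryos and 6.80 and 5.77 in U0126-treated embryos. On the falling side were histone demethylases and a remodeller, each lower on both released arrays. Kdm5a, a demethylase of histone H3 lysine 4, was at 6.85 and 7.26 in released embryos, against 9.33 and 9.41 in U0126-treated embryos (-2.31 ± 0.30, adjusted p = 5.31e-04). Kdm4c, a demethylase of lysine 9, was at 7.44 and 6.76 in released embryos, against 8.97 and 9.34 in U0126-treated embryos (-2.05 ± 0.33, adjusted p = 0.00143). The remodeller Chd7 was at 7.20 and 6.23 in released embryos, against 9.47 and 8.73 in U0126-treated embryos (-2.39 ± 0.35, adjusted p = 9.68e-04). The 17 falls became 9 without released replicate 1, 6 without released replicate 2 and 11 without either U0126 array.

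Hippo pathway genes, which read cell position and feed into Cdx2, had 4 rises (16.7%) and 2 falls (8.33%) among 24 tested. The shares of all genes were 13.7% and 14.5%, and the median difference of the list was 0.05. Amot, the angiomotin that activates the pathway in inner cells, was at 9.92 and 10.13 in released embryos, against 7.50 and 7.74 in U0126-treated embryos (2.40 ± 0.57, adjusted p = 0.0108), a call lost without released replicate 2 (adjusted p = 0.0602). The coactivator Yap1 was at 10.11 and 9.73 in released embryos, against 10.90 and 10.56 in U0126-treated embryos (-0.81 ± 0.26, adjusted p = 0.0404), a call lost without U0126 replicate 1 (adjusted p = 0.163), released replicate 1 (adjusted p = 0.06) or released replicate 2 (adjusted p = 0.22). Its relative Wwtr1 was at 8.96 and 8.85 in released embryos and at 8.60 and 9.22 in U0126-treated embryos (-0.01 ± 0.29). A further probe set of Wwtr1, of mean level 8.32, gave 1.48. The list had 1 rise without released replicate 2 or U0126 replicate 2, 2 without released replicate 1 and 8 with the block, and its 2 falls became 0 without either released array. Amino acid transporters had 5 rises (20.8%, beside 13.7% of all genes) and 4 falls (16.7%, beside 14.5%) among 24. Slc38a1 was at 7.28 and 7.60 in released embryos, against 5.20 and 4.17 in U0126-treated embryos (2.76 ± 0.39, adjusted p = 7.99e-04), and Slc6a14 was at 6.94 and 6.78 in released embryos, against 4.23 and 3.95 in U0126-treated embryos, at least 1.86 higher. Slc43a2 fell (-2.51, adjusted p = 0.011), with differences from -3.66 to -1.37 without 1 array. Slc38a2 fell too (-1.30, adjusted p = 0.0313), a call lost with the mean of its probe sets (adjusted p = 0.725). Slc7a5 (-0.75) and Slc3a2 (-0.03) did not pass. The 4 falls of transporters became 1 without released replicate 1 and 2 without released replicate 2 or U0126 replicate 1. Lysosome genes had 5 rises (11.6%) and 4 falls (9.30%) among 43 tested, under the 13.7% and 14.5% of all genes. The peptidase Tpp1 was at 6.56 and 7.49 in released embryos, against 2.37 and 2.86 in U0126-treated embryos, at least 2.03 higher, and Ctsh, cathepsin H, was at 7.11 and 6.39 in released embryos, against 8.69 and 8.97 in U0126-treated embryos (-2.08 ± 0.35, adjusted p = 0.00183). The lysosome list had 10 rises without U0126 replicate 1, 12 with the block and 3 without released replicate 1 or U0126 replicate 2.

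**Figure D2:**
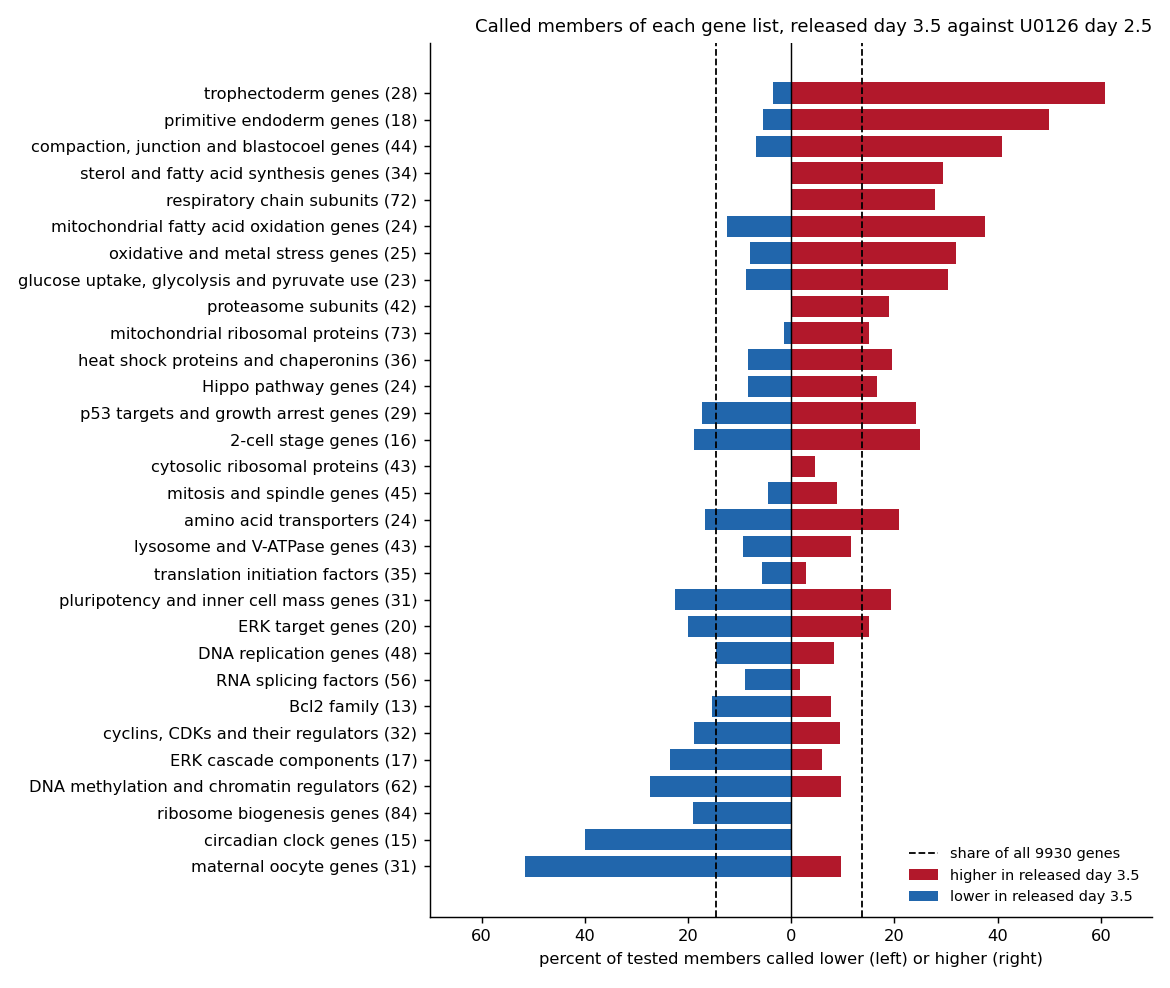
Share of the tested members of each gene list, in percent, that rose (red bars, right) or fell (blue bars, left) in released day 3.5 embryos against U0126 day 2.5 embryos, with the number of tested members in brackets and dashed lines at the shares of all 9930 genes (13.7% higher, 14.5% lower). Trophectoderm genes (17 of 28) reach farthest to the right and maternal oocyte genes (16 of 31) farthest to the left.

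The released step was then set against the undisturbed day from day 2.5 to day 3.5 in control embryos, which shares no array with it. In control embryos 1326 genes were higher at day 3.5 (13.4%) and 822 lower (8.28%). Of the 1363 genes that rose after release, 685 (50.3%) also rose in that control day, which is 51.7% of its rises, and 12 fell there. Of the 1436 that fell after release, 454 (31.6%) also fell in that control day, which is 55.2% of its falls, and 25 rose there. The earlier control day, from day 1.5 to day 2.5, had 2785 genes higher (28.0%) and 2721 lower (27.4%). It shared 687 rises and 787 falls with the released step, while 173 genes that rose after release fell in it. Over all genes the released step correlated with the later control day at 0.617 and with the earlier one at 0.417, as a description over 9930 genes that are not independent. By level, the released mean lay within 1 log2 unit of control embryos of the same day for 92.6% of the rises and 94.9% of the falls, near the 95.5% of all 9930 genes. Against control embryos of day 2.5 it did so for 49.2% of the rises and 73.9% of the falls, beside 80.1% of all genes.

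**Figure D3:**
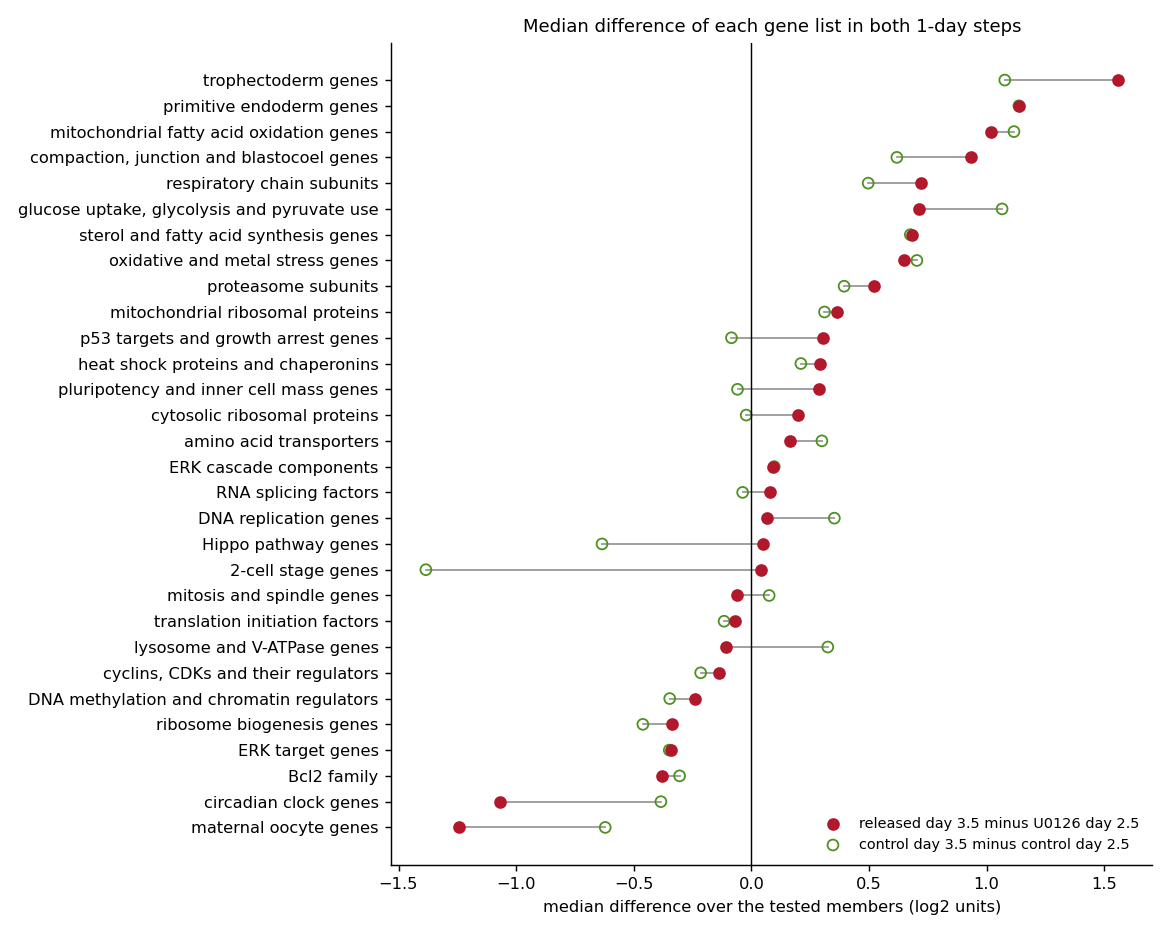
Median difference over the tested members of each gene list, in log2 units, for released day 3.5 minus U0126 day 2.5 (filled red circles) and control day 3.5 minus control day 2.5 (open green circles). The medians run from 1.56 for trophectoderm genes to -1.24 for maternal oocyte genes after release, against 1.08 and -0.62 in the control day, and 2-cell stage genes lie at 0.04 against -1.38.

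A direct test of the released step minus the control day from day 2.5 to day 3.5 called 298 genes, 100 higher (1.01%) and 198 lower (1.99%). Its size depended on single arrays, from 22 genes without control day 3.5 replicate 1 to 396 without U0126 replicate 2, with 153 when control day 3.5 replicate 2 was left out, 48 and 109 when replicate 1 or replicate 2 of control day 2.5 was left out, 44 without released replicate 1 and 61 without released replicate 2. With the replicate block it was 692. After each array was centred on its median, 156 were higher and 140 lower, so 52.7% in place of 33.6% were higher. The median of this contrast over all genes was -0.11 as deposited and 0.10 after centring. The comparison with the earlier control day called 3756 genes (37.8%).

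Named genes of the first test that kept the call without any one of the 8 arrays were Rgs9bp, Zfp280c, Cd24a and Dennd1b. Rgs9bp, an anchor of a G protein regulator known from retina, was at 3.30 and 3.66 in released embryos, against 9.24 and 8.02 in U0126-treated embryos, at least 3.63 lower. In the control day it was near background throughout, at 3.48 and 3.49 at day 3.5 and at 3.49 and 3.66 at day 2.5, and the steps differed by -5.06 ± 0.50 (adjusted p = 0.00465), or -3.63 with every array raised to at least 5. It was also at 3.29 and 3.36 at day 1.5 and at 3.29 and 3.26 in released embryos of day 4.5, so it was above a level of 5 in the U0126-treated embryos alone among the 6 groups. Zfp280c, a zinc finger protein, was at 5.39 and 5.43 in released embryos, against 7.39 and 7.03 in U0126-treated embryos, but at 6.43 and 6.11 at day 3.5 against 3.78 and 4.01 at day 2.5 in control embryos (-4.18 ± 0.39, adjusted p = 0.00465), or -3.07 with every array raised to at least 5. It fell in one step and rose in the other. Cd24a, a surface glycoprotein, was at 7.19 and 7.69 in released embryos, against 6.10 and 5.37 in U0126-treated embryos, and at 5.30 and 6.19 at day 3.5 against 8.50 and 8.29 at day 2.5 in control embryos (4.35 ± 0.52, adjusted p = 0.00587). After release the probe set used for Cd24a gave 1.70. Its further probe sets, of mean levels 6.05 and 5.78, gave 0.23 and 2.15. Its rise after release alone was lost without released replicate 2 (adjusted p = 0.0566). Dennd1b, a regulator of membrane traffic, was at 8.38 and 8.54 in released embryos, against 3.30 and 3.66 in U0126-treated embryos, at least 3.46 higher, and at 8.57 and 8.85 at day 3.5 against 7.63 and 7.77 at day 2.5 in control embryos (3.97 ± 0.44, adjusted p = 0.00465), or 2.45 with every array raised to at least 5.

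**Figure D4:**
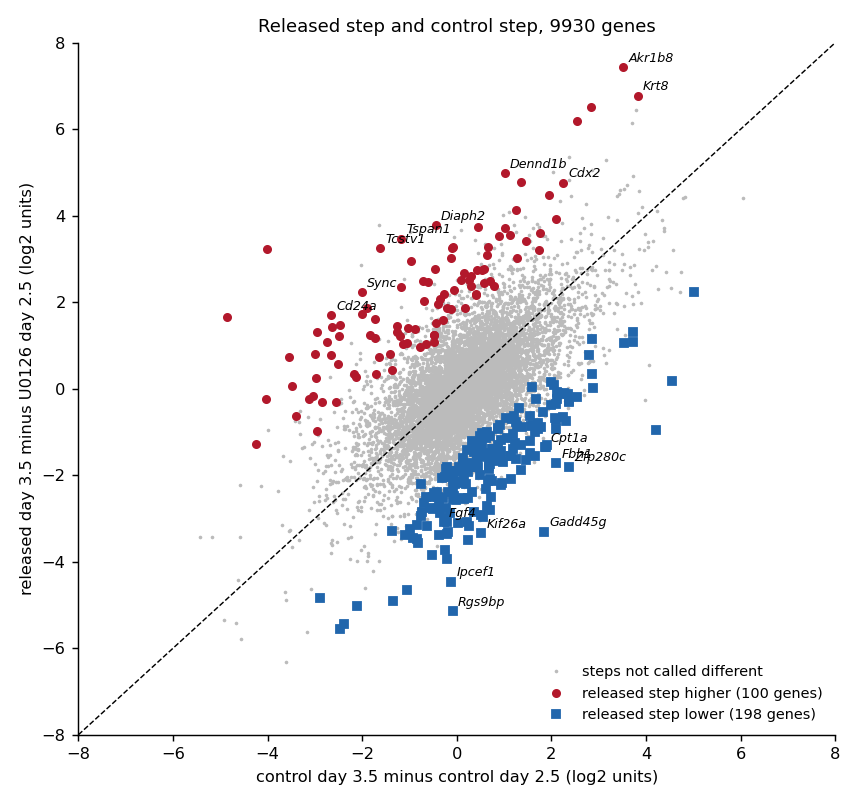
Each of 9930 genes by its difference in the control day (day 3.5 minus day 2.5, horizontal axis) and in the released step (released day 3.5 minus U0126 day 2.5, vertical axis), both in log2 units, with the diagonal of equal change dashed. Red circles are the 100 genes whose released step was higher, blue squares the 198 whose released step was lower and grey points the rest.

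Several genes described above differed between the steps in the full fit but not without every single array. Krt8 rose by 2.95 more after release than in the control day (SE 0.59, adjusted p = 0.0297), and Cdx2 by 2.51 more (SE 0.50, adjusted p = 0.0286), or 1.94 with every array raised to at least 5. Both had been lower in U0126-treated embryos than in control embryos of the same day, at 6.95 and 5.86 against 9.98 and 9.19 for Krt8 and at 4.51 and 4.34 against 7.69 and 7.13 for Cdx2, and at day 3.5 their released means lay within 1 log2 unit of the control means. The call between the steps was lost without any one of 5 of the 8 arrays for Krt8 and of 7 for Cdx2, with the highest adjusted p, 0.109 and 0.108, without control day 2.5 replicate 1. Nanog did not differ in the test between the steps (1.03 ± 0.45, adjusted p = 0.256). Sox2 missed the threshold (-3.51 ± 0.83, adjusted p = 0.0523), with 5.90 and 6.86 in released embryos against 8.80 and 7.32 in control embryos of day 3.5. Fgf4 fell by 2.81 more after release (SE 0.53, adjusted p = 0.0251, lost without any one of 6 arrays and 0.0978 without control day 3.5 replicate 1), since its control levels were already 5.24 and 5.47 at day 2.5. Gadd45g fell after release but rose in the control day, at 5.81 and 4.93 at day 3.5 against 3.57 and 3.49 at day 2.5 (-5.15 ± 0.77, adjusted p = 0.0137, lost without 2 of the arrays and 0.0657 without control day 3.5 replicate 1), or -3.54 with every array raised to at least 5. Tcstv1 rose after release to a level near that of control 2-cell embryos, 8.53 and 8.71, while control embryos of day 3.5 had 2.72 and 2.74 (4.86 ± 1.02, adjusted p = 0.0327, lost without any one of 7 arrays and 0.123 without control day 3.5 replicate 1), or 2.73 with every array raised to at least 5. At day 4.5 the released embryos had 5.71 and 3.77 for Tcstv1. The plot of levels by day shows these courses.

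**Figure D5:**
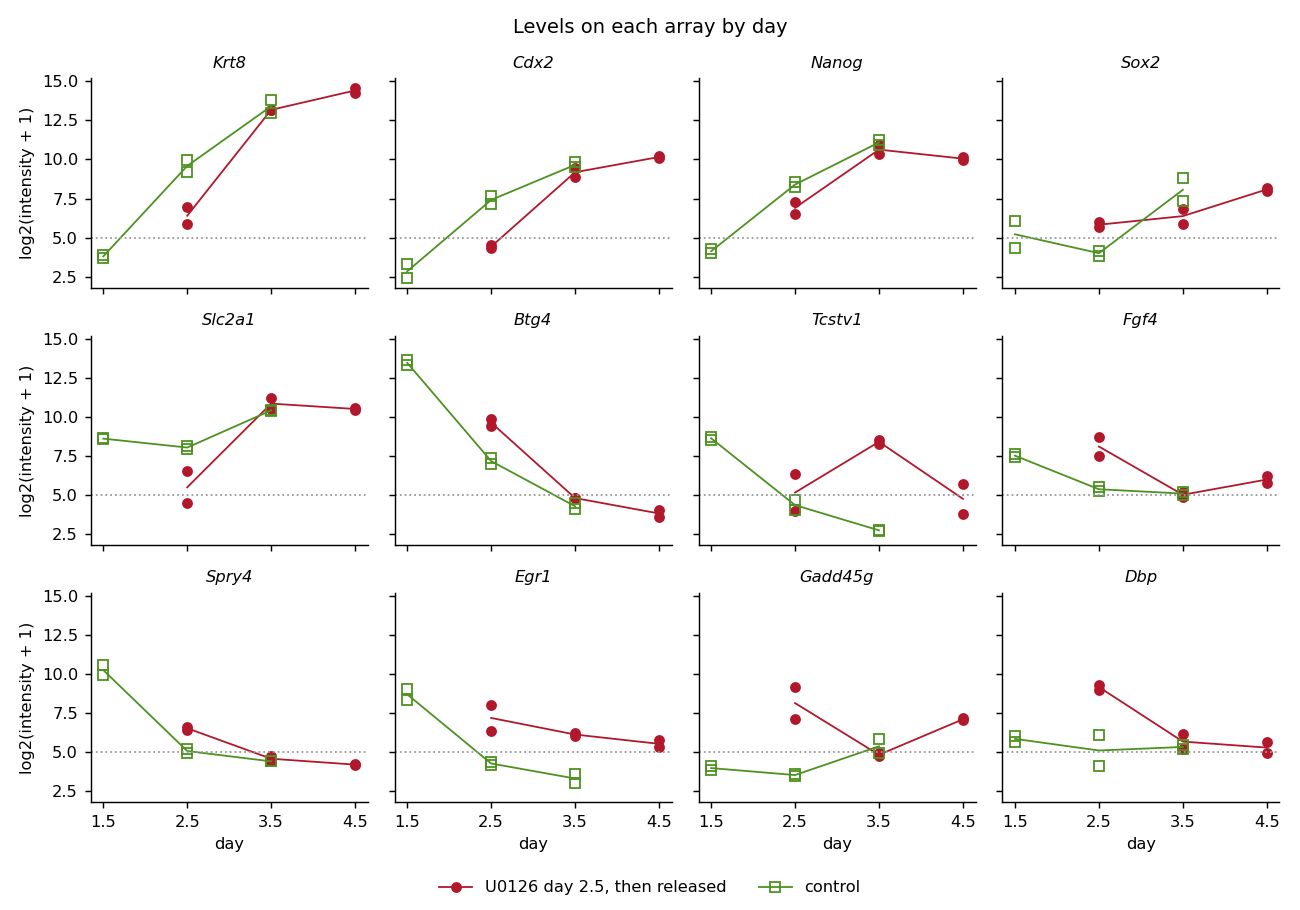
Level on each array, as log2(intensity + 1), by embryo day for 12 genes, with U0126 day 2.5 and released day 3.5 and 4.5 arrays as red filled circles, control arrays of day 1.5, 2.5 and 3.5 as green open squares, lines through the group means and a dotted line at 5. Krt8, Cdx2 and Nanog come within 1 log2 unit of the control mean at day 3.5, Tcstv1 is at 8.28 and 8.51 in released embryos against 2.72 and 2.74 in control embryos of day 3.5, and Gadd45g and Dbp have their highest mean in U0126-treated embryos.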

How the data were processed

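RNA levels were measured on 12 Affymetrix Mouse Genome 430 2.0 arrays. Per the labels' protocols, each took 0.1 µg of total RNA that was amplified in 2 rounds. The deposited values are linear intensity values per probe set. GCRMA, a background correction, quantile normalization and probe summary, is the tool in the submitters' processing notes, and the design text names GCOS 1.2 and GeneSpring 7.3. The sources used here give no further step, and the absolute unit is arbitrary. Median intensity per array was 10.8 to 11.5.

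Of 45101 probe sets, 34958 had 1 gene symbol in the platform annotation, 932 several and 9211 none. For each of 18194 genes, the probe set of highest mean level over the arrays was kept. A gene was tested if log2(intensity + 1) reached 5 on 2 or more arrays, which 9930 did. The 12 arrays were fitted in limma 3.58.1 (R 4.3.3) with a mean per group, and p-values were adjusted by Benjamini-Hochberg. On simulated data of the released against U0126 comparison with 9930 genes, 16% of 50 genes changed by 1 log2 unit, 92% of those changed by 2, 98% at 3 and 100% at 4 were recovered. In this simulation a far smaller share of genes changed than was called in the data, and the noise was independent on each array. These shares therefore do not give the recovery in the real comparison. Replicate numbers pair the arrays: deviations from group means correlated at 0.12 to 0.42 in all 15 pairs of groups, and the design text tells of 2 independent experiments. The main fit did not use this pairing, and the replicate block was run as an alternative. With the block 3729 genes were called after release in place of 2799, and 692 in place of 298 against the control day from day 2.5 to day 3.5.

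The 34 lists held 1336 entries, 1190 of them on the array and 1089 tested. The members and lists were chosen with earlier results of these data known. Named genes were the 12 largest rises and falls by differences with arrays raised to at least 5. These were taken from called genes whose released and U0126 arrays did not overlap. Also named were up to 4 called members and the core members of each list, and the 6 highest and lowest against each control day. Predicted genes were left unnamed. Of 272 named genes, 137 had further probe sets. Among the 94 of these that were called, 1 gene, Homer1, had a probe set that moved the other way by at least 1 log2 unit. Of those not called, Ccna2 (1.12 against -0.69 for the probe set used) and Wwtr1 (1.48 against -0.01) had such a probe set.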

Additional observations from a re-analysis of the deposited data

Results flagged for a closer look

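The released step and the control day from day 2.5 to day 3.5 differed in 298 genes by the interaction test in limma, and the named ones among them follow as the released step minus the control day in log2 units. Above 0 were Tcstv1 (4.86), Tspan1 (4.65), Cd24a (4.35), Sync (4.24), Diaph2 (4.23), Dennd1b (3.97), Akr1b8 (3.92), Cryab (3.66), Plet1 (3.65), Dab2 (3.41), Krt8 (2.95), Tfcp2l1 (2.88), Cdx2 (2.51), Myc (2.05) and Dnmt3b (1.78). Below 0 were Gadd45g (-5.15), Rgs9bp (-5.06), Ipcef1 (-4.34), Zfp280c (-4.18), Kif26a (-3.86), Fbh1 (-3.82), Dbp (-3.72), Cpt1a (-3.22), Klhl8 (-3.07), Trim61 (-3.07), Fgf4 (-2.81), Cpt2 (-2.65) and Btg4 (-1.94). Their adjusted p-values lay between 0.00465 and 0.0389. Of these 28 genes, 4 kept the call without any one of the 8 arrays, 24 lost it without at least one, and 0 lost it with the replicate block. All 28 kept their sign with every array raised to at least 5, and 7 were then over 1.5 times smaller, namely Tcstv1 (2.73), Sync (2.71), Diaph2 (2.59), Dennd1b (2.45), Kif26a (-2.27), Ipcef1 (-2.12) and Cpt2 (-1.10). Centring each array on its median ended 1 call, that of Btg4 (adjusted p = 0.0605).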

How the results depend on the processing

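The count of genes that changed after release was 2799. Fitting the 4 arrays of the comparison alone gave 1381, and leaving out 1 array gave 1630 to 2372. The pseudocount, filters, scalings, probe set rule, intensity trend and replicate block gave 2514 to 3729, and with the block 2797 of the 2799 calls were shared. The count of genes whose step differed from the control day from day 2.5 to day 3.5 was 298. It was 194 with no filter on low values, 692 with the replicate block, 38 with the 8 arrays of that contrast alone and 22 to 396 without 1 array. Against the earlier control day it was 3756, and 2935 to 4650 under all alternatives. The causes of these changes were not tested. Of 179 called named genes, 109 kept the call without any one of the 4 arrays and 70 lost it without at least one. Under the other settings 41 lost it, not counting the fit of the 4 arrays alone. That fit ended the call of 63 named genes. Of the named genes not called, 10 passed without at least one array. The medians of 21 of 30 lists moved by over 1.5 times without at least one array and 5 of them changed sign, but of the 11 lists with a median of at least 0.5 in size only 3 moved so. The block ended 0 calls and added 20 among the named genes, and no named difference of a call changed sign. With a lone array in a group, that array is assumed to vary like the other groups. Intensities near background limit the size of any difference with a group under a level of 5.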

Other observations

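Of the 1436 genes that fell after release, 377 had both U0126 arrays above every other array of the series, against 611 such genes among all 9930 tested. Such a gene has its U0126 arrays above its released arrays by definition and cannot be a rise. A larger share among the falls is thus built in by the choice of genes. In 793 of the 1436 (55.2%) the mean of control embryos of day 1.5 was above that of U0126-treated embryos. Pramel18, of a family of early embryo genes, was at 6.84 and 9.13 in released embryos, against 3.82 and 5.28 in U0126-treated embryos, and at 9.29 and 10.11 in control embryos of day 1.5. Released embryos of day 4.5 had 3.98 and 3.82 for it. Laptm5, a lysosomal membrane protein, was at 7.89 and 9.13 in released embryos, against 4.45 and 3.73 in U0126-treated embryos, a difference of 4.42 ± 0.46 (limma adjusted p = 1.71e-04) and at least 3.51 with every array raised to at least 5. Foxa1, a pioneer transcription factor of endoderm, was at 6.89 and 6.62 in released embryos, against 9.29 and 11.06 in U0126-treated embryos. In control embryos Foxa1 was at 4.07 and 6.61 at day 3.5 against 10.45 and 11.10 at day 2.5, so it fell in both steps.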
